A study of Mus musculus with 21 samples.

Results

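The genes described here encode the proteins of the cytosolic ribosome in mouse testis. They were chosen by symbol (Rpl, Rps and Rplp names with a number, with or without the endings a, l, l1 or x) and by their level, whose mean over all 21 libraries had to reach 1 TPM. TPM is a transcript level per length, scaled to the same total in each library. Of 55573 entries in the deposited table, 84 symbols matched and 83 reached the minimum. The member just inside was Rpl32l, at a mean of 2.25 TPM, and the symbol just outside was Rpl3l, at 0.389 TPM. By name, 49 of the 83 belong to the large subunit, 31 to the small subunit and 3 to the P stalk. In GENCODE M21, 80 are protein-coding, Rpl6l and Rpl32l are processed pseudogenes and Rps4l is a transcribed processed pseudogene. Rpl10, Rpl39, Rps4x and Rpl36a lie on chromosome X, and the other 79 are autosomal.

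Whole testes of male C57BL6 mice were profiled by RNA sequencing with a stranded mRNA kit, to ask how the testis transcriptome responds to loss of Mageb4, a gene of the MAGE family, with and without heat. The groups were heated Mageb4 knockout (n = 5), heated wild type (n = 4), unheated Mageb4 knockout (n = 6) and unheated wild type (n = 6), and heated testes were taken 72 h after heat shock. The labels call the libraries biological replicates. The labels do not state the knockout allele, the age of the animals, or the temperature and duration of the heat. Mageb4 stood at 0.09 to 0.15 TPM in heated knockout and 7.82 to 8.26 TPM in heated wild type, and at 0.01 to 0.11 TPM in unheated knockout and 1.53 to 1.99 TPM in unheated wild type. TPM keep no depth, so the number of reads behind a value is unknown, and errors below are between libraries.

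Ribosomal proteins bind ribosomal RNA to build the large and small subunits, and they are made in near equal numbers in every growing cell. In male meiosis the X and Y chromosomes are silenced, and spermatocytes and spermatids carry transcribed autosomal copies of some X-linked genes. In mice Rpl10l, an intronless copy of Rpl10, is needed for male meiosis, and Rpl39l, a copy of Rpl39, is needed for normal sperm formation. Rpl10 encodes a large subunit protein added late in subunit assembly, and Rpl39 a small protein that lines the exit tunnel for the growing peptide.

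The coding sequences of both pairs are shown because the results turn on telling a copy from its parent gene. They come from GENCODE M21 transcripts on mm10, 5′ to 3′, and capitals mark the bases that differ within a pair. Rpl10l (chr12:66283379-66284401, minus strand, 1 exon) and Rpl10 (chrX:74270812-74273135, plus strand, 7 exons) each have 645 coding bases, of which the first 240 are printed.
Rpl10l: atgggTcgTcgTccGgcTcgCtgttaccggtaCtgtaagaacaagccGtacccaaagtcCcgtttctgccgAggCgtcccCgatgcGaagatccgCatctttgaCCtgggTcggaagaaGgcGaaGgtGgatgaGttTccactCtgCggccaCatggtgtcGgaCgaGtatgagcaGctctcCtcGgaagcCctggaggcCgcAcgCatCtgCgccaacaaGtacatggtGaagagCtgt
Rpl10: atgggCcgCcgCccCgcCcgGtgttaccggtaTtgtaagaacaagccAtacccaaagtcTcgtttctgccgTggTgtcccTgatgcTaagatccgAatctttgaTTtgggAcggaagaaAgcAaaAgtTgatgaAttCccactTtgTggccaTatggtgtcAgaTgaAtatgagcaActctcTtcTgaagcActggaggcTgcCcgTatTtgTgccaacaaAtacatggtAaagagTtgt
Over the whole coding sequence the pair differed at 98 bases (84.81% identity), 89 of them at the third base of a codon, and the longest stretch shared by their transcripts was 23 bases. Rpl39l (chr16:10170226-10174911, plus strand) and Rpl39 (chrX:37082520-37085402, minus strand) each have 156 coding bases, printed whole.
Rpl39l: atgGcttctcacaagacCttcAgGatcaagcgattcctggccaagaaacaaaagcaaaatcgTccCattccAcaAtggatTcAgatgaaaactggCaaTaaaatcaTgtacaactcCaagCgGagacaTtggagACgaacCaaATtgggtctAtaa
Rpl39: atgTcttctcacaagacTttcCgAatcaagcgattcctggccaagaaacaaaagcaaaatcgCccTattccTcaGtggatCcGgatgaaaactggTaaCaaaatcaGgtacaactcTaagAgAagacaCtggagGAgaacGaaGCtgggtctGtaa
Here 23 bases differed (85.26% identity), 16 of them at the third base of a codon, and the longest shared stretch was 38 bases. The pseudogene Rpl6l shared a stretch of 354 bases with Rpl6, and Rpl32l shared 94 bases with Rpl32, so the division of reads between those genes is uncertain.

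Many ribosomal protein mRNAs begin with a run of pyrimidines, the 5′ terminal oligopyrimidine (TOP) motif, through which growth signals regulate their translation. Windows of 20 bases on either side of the annotated start came from RefSeq (GRCm38.p6), for the sense strand, with a run of at least 7 consecutive C or T bases that touches the 5 bases before to the 10 bases after the start in capitals. They show a start with a long run, Rps6, and the starts of the pairs above.
Rps6: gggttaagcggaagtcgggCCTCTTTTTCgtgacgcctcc
Rpl39l: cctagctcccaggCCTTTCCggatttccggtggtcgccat
Rpl39: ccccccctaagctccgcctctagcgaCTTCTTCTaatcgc
Rpl10l: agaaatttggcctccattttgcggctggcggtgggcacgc
Rpl10: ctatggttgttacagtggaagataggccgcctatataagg
The Rps6 window is chr4:86857348-86857387 (minus strand), and the gene encodes the small subunit protein phosphorylated by S6 kinases. Of the 61 member genes with an entry, 33 (54.1%) held such a run, against 5070 of all 27025 genes with an entry (18.8%). Such a run need not begin at the annotated start, so the counts are not counts of TOP motifs. Rpl39l and Rpl39 held a run, but that of Rpl39l ended before the annotated start and that of Rpl39 began after it. The windows of Rpl10l and Rpl10 held none. A match is a description of the annotated start and was not tied to the levels below.

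Ribosomal protein transcripts were abundant in all groups. Their summed level was 3.63 ± 0.188% of all TPM in heated knockout (SD, n = 5), 4.19 ± 0.117% in heated wild type (n = 4), 3.19 ± 0.0967% in unheated knockout (n = 6) and 3.16 ± 0.110% in unheated wild type (n = 6). Each heated library lay above each unheated library, with heated knockout libraries from 3.42% to 3.85%, heated wild-type libraries from 4.03% to 4.29%, unheated knockout libraries from 3.08% to 3.33% and unheated wild-type libraries from 3.00% to 3.27%. Rps27, a small subunit protein with a zinc finger, had the highest level in every group, at 1650 ± 113 TPM in heated knockout, 1891 ± 165 TPM in heated wild type, 1419 ± 82.5 TPM in unheated knockout and 1435 ± 81.4 TPM in unheated wild type. Rps24 and Rpl41 came next, and 71 of the 83 members lay between 100 and 1000 TPM in unheated wild type. In unheated wild type the members at the low end of that order included the X-linked Rpl36a (40.6 TPM) and Rpl39 (37.3 TPM), whose levels were 49.1 and 46.0 TPM in unheated knockout.

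**Figure D1:**
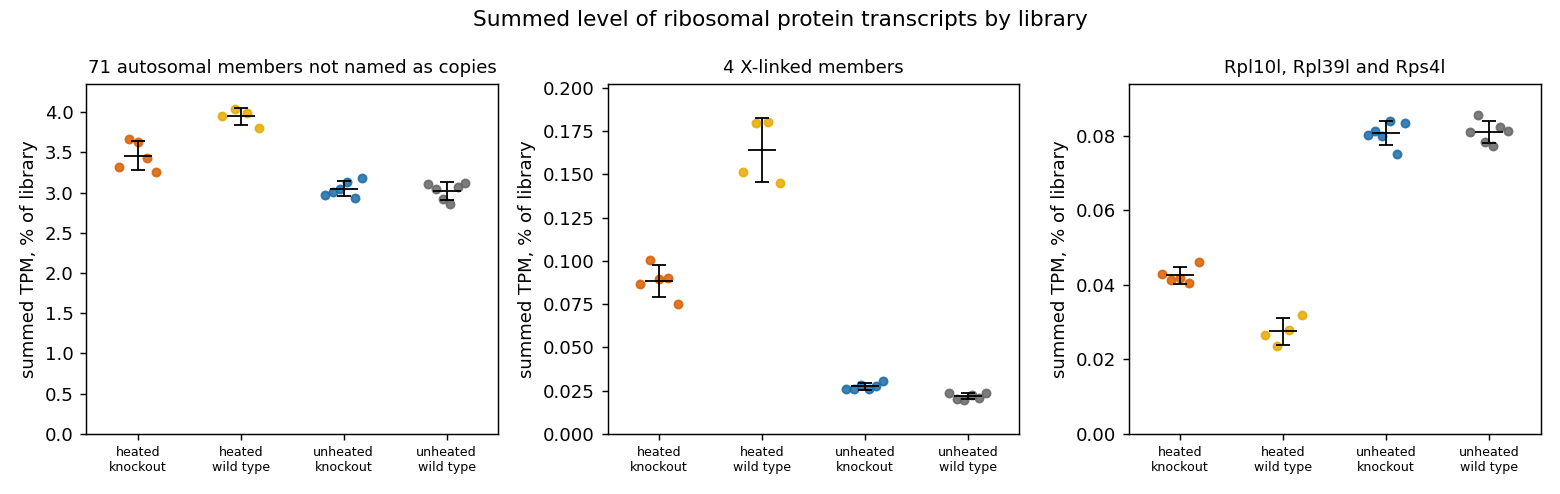
Summed TPM as a percentage of each library (y axis, from 0) in the 4 groups, for the 71 autosomal members not named as copies, the 4 X-linked members, and Rpl10l, Rpl39l and Rps4l together. Points are libraries, and bars are the mean ± SD. The X-linked members were higher and the copies lower in every heated library than in any unheated one.

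Within groups the extreme values were unevenly spread over libraries. Replicate 4 of heated wild type had the lowest level of its group for 43 of the 83 members and the highest for 5. Replicate 5 of unheated knockout was lowest for 43 and highest for 12, and replicate 4 of unheated wild type was lowest for 41 and highest for 21, so the members did not all move together. Within groups, Pearson correlation of libraries over all tested genes was 0.971 to 0.994. Replicate 3 of heated wild type stood apart in epididymal marker genes, with a summed level of 3520 TPM, where heated knockout libraries had 3.35 to 7.11 TPM and the remaining heated wild-type libraries 11.7 to 18.1 TPM. That library also held 2.69 TPM of Rpl3l, a gene known from striated muscle, against at most 0.47 TPM in any other library. Without it the counts of members called in the heat comparison of wild type were 60 higher and 14 lower, and those for knockout against wild type after heat were 7 higher and 55 lower. The summed level of mitochondrially encoded genes also moved with heat, at 2.38 ± 0.331% of all TPM in heated knockout, 5.71 ± 0.518% in heated wild type, 0.937 ± 0.0323% in unheated knockout and 0.798 ± 0.0616% in unheated wild type (SD), and with those genes removed 63 members rose and 12 fell after heat in wild type.

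At 72 h after heat, most ribosomal protein genes had risen in both genotypes. Calls are adjusted p under 0.05 in limma on log2(TPM + 1), with Benjamini-Hochberg adjustment over 18977 genes, and log2 fold changes are on that scale with their moderated standard errors. In the knockout, 56 members rose, 13 fell and 14 were not called, while 41.3% of all tested genes rose and 41.5% fell (82.8% called). In wild type, 61 members rose, 14 fell and 8 were not called, while 47.0% of all tested genes rose and 44.6% fell (91.6% called). These shares are the background for the counts of members, and more members rose than fell while the tested genes split nearly evenly. The median log2 fold change of the members was 0.23 in the knockout, where all tested genes had a median of 0.01, and 0.50 in wild type, where all tested genes had a median of 0.06. Heated and unheated libraries did not overlap for 51 of the 83 members in the knockout, against 69.7% of all tested genes, and for 68 in wild type, against 86.5%. In the knockout 31 of 49 large subunit members rose and 10 fell, and 23 of 31 small subunit members rose and 3 fell. In wild type 36 of the large subunit members rose and 10 fell, and 23 of the small subunit members rose and 3 fell. The difference between subunits was not tested.

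The split between rises and falls depended on how TPM were scaled. With median-of-ratios scaling, 45 members rose and 19 fell in the knockout, and 49 rose and 21 fell in wild type, where the members shifted by -0.24 and all tested genes by -0.21 in log2. In wild type 6 small rises then had the opposite sign, of which Rpl32 (-0.15, adjusted p = 0.0224 in limma) and Rpl34 (-0.13, adjusted p = 0.0222) passed the test. With quantile normalization 54 members rose and 11 fell in the knockout, and 63 rose and 7 fell in wild type. With median-of-ratios scaling 70.3% of called members rose in the knockout and 70.0% in wild type, against 46.5% and 46.9% of all called genes. With quantile normalization the shares were 83.1% and 90.0% of called members, against 53.7% and 52.3% of all called genes. The X-linked members and Rpl10l, Rpl39l and Rps4l kept their direction in both heat comparisons under each of these scalings.

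**Figure D2:**
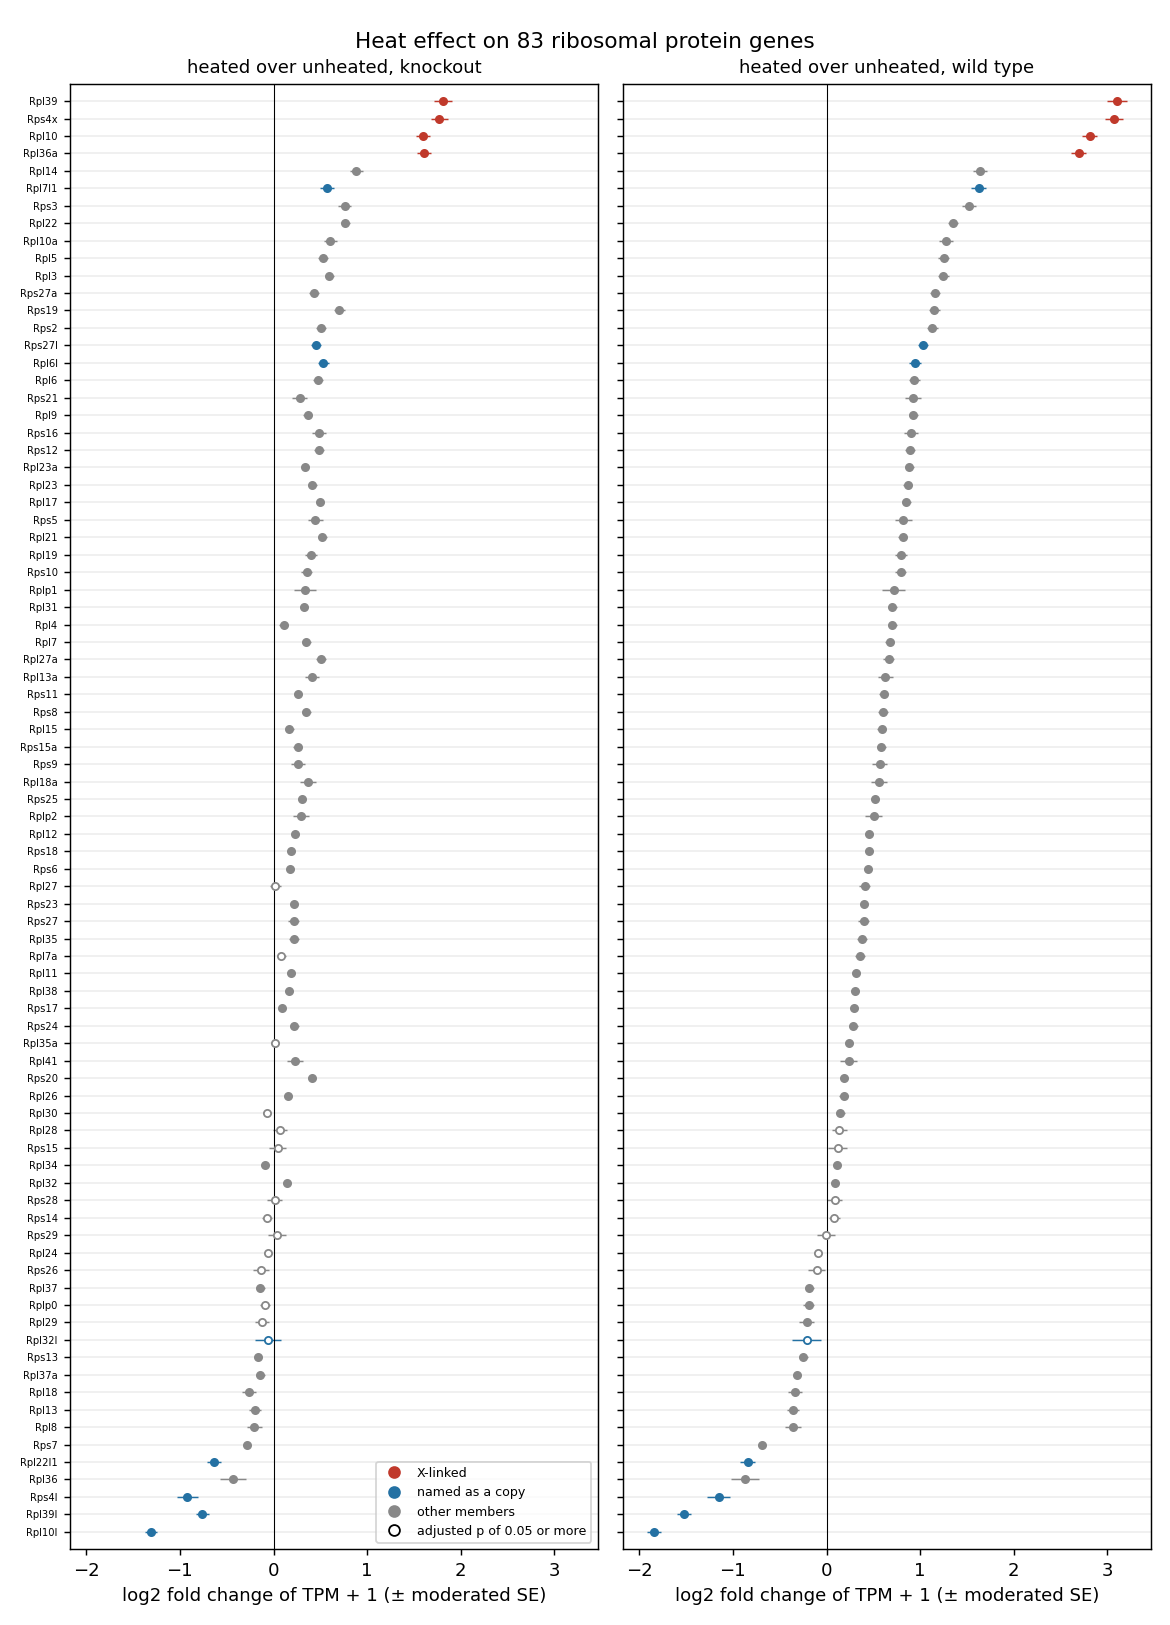
Log2 fold change of TPM + 1, heated over unheated, with its moderated standard error, for each of the 83 members in the knockout (left) and in wild type (right), ordered by the wild-type value on a common axis. X-linked members are red, members named as copies blue and the rest grey, and open symbols did not pass the test. The 4 X-linked genes stand at the top and Rps4l, Rpl39l and Rpl10l at the bottom of the wild-type order.

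The largest rises were those of the 4 X-linked genes, in both genotypes. Rpl10 was at 353, 417, 374, 384 and 321 TPM in the heated knockout libraries and at 636, 724, 720 and 579 TPM in the heated wild-type libraries. Its lowest, median and highest values were 118, 119 and 130 TPM in unheated knockout and 83.3, 89.9 and 106 TPM in unheated wild type. No 2 of these groups overlapped, and heated wild type was the highest. Rpl10 rose 3.04-fold in mean TPM in the knockout (log2 1.59 ± 0.07, adjusted p = 7.95e-14 in limma) and 7.09-fold in wild type (2.81 ± 0.08, adjusted p = 1.22e-17).

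Rpl39 was at 165, 192, 165, 169 and 131 TPM in heated knockout and at 276, 368, 369 and 299 TPM in heated wild type. Its lowest, median and highest values were 41.4, 46.1 and 49.6 TPM in unheated knockout and 32.6, 36.4 and 44.3 TPM in unheated wild type. Only the 2 unheated groups overlapped. Rpl39 had the largest log2 fold change of all members in both genotypes, 1.81 ± 0.10 in the knockout (adjusted p = 4.85e-13 in limma) and 3.10 ± 0.10 in wild type (adjusted p = 6.12e-17).

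Rps4x, which encodes a small subunit protein, was at 202, 228, 200, 201 and 163 TPM in heated knockout and at 347, 421, 425 and 332 TPM in heated wild type. Its lowest, median and highest values were 51.8, 56.1 and 68.3 TPM in unheated knockout and 39.0, 43.5 and 51.8 TPM in unheated wild type. Each heated library lay above all unheated ones, and Rps4x rose by 1.77 ± 0.09 in log2 in the knockout (adjusted p = 3.36e-13 in limma) and by 3.07 ± 0.10 in wild type (adjusted p = 4.00e-17). Rpl36a, which encodes a large subunit protein, had 138 to 169 TPM in heated knockout and 240 to 290 TPM in heated wild type, against 44.4 to 58.6 TPM in unheated knockout and 36.8 to 44.4 TPM in unheated wild type. It rose by 1.61 ± 0.07 in the knockout (adjusted p = 6.83e-14) and by 2.69 ± 0.08 in wild type (adjusted p = 1.88e-17).

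Together the 4 X-linked members summed to 884 ± 91.0 TPM in heated knockout (SD, n = 5), 1642 ± 186 TPM in heated wild type (n = 4), 274 ± 18.5 TPM in unheated knockout (n = 6) and 216 ± 17.6 TPM in unheated wild type (n = 6). Their median log2 fold change was 1.69 in the knockout and 2.94 in wild type. Over all 871 X-linked genes tested the medians were 0.65, with 566 higher and 192 lower, in the knockout and 1.33, with 574 higher and 250 lower, in wild type. The 79 autosomal members had medians of 0.22 in the knockout and 0.46 in wild type. In whole testis a larger share of cells of a type and more RNA per cell cannot be told apart.

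Markers of cells outside the germ line moved in the same direction. All 18 Sertoli cell markers were higher after heat in both genotypes, with a median log2 fold change of 1.55 in the knockout and 2.77 in wild type, and all 11 Leydig cell markers were higher, with a median of 1.48 in the knockout and 2.23 in wild type. All 13 leukocyte, 8 endothelial and 6 peritubular myoid markers were also higher in both. The Sertoli markers summed to 5972 to 8502 TPM in heated knockout and 13010 to 15717 TPM in heated wild type, and to 2132 to 2810 TPM in unheated knockout and 1689 to 1916 TPM in unheated wild type, and none was at 0 throughout a group. The part of these cells in the rises of the X-linked ribosomal protein genes was not tested.

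**Figure D3:**
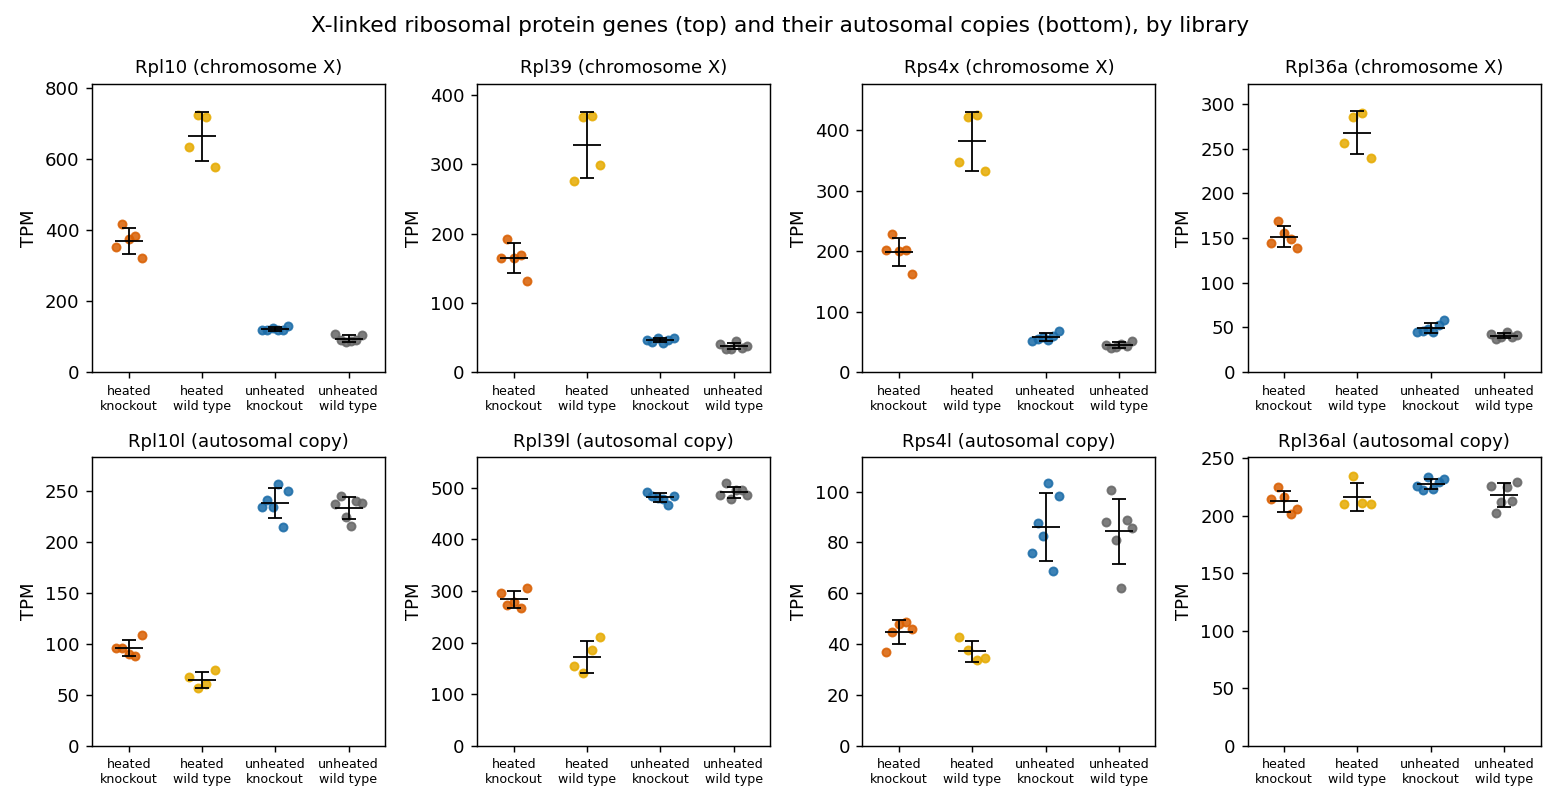
TPM (y axis, from 0) of 4 X-linked ribosomal protein genes (top row) and an autosomal copy of each (bottom row) in the 4 groups. Points are libraries and bars are the mean ± SD. After heat the X-linked genes were higher and Rpl10l, Rpl39l and Rps4l lower in every library, whereas Rpl36al lay between 201 and 235 TPM throughout.

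The autosomal copies went the other way. Rpl10l was at 96.0, 95.9, 90.3, 88.3 and 109 TPM in heated knockout and at 67.4, 56.7, 60.3 and 74.3 TPM in heated wild type. Its lowest, median and highest values were 215, 238 and 257 TPM in unheated knockout and 216, 238 and 245.4 TPM in unheated wild type. The unheated groups overlapped, and the heated wild-type libraries were the lowest. Rpl10l had the smallest log2 fold change of all members in both genotypes, -1.31 ± 0.07 in the knockout (adjusted p = 2.48e-13 in limma) and -1.84 ± 0.07 in wild type (adjusted p = 4.14e-16).

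Rpl39l was at 295, 272, 279, 268 and 306 TPM in heated knockout and at 154, 140, 185 and 211 TPM in heated wild type. Its lowest, median and highest values were 467, 483 and 493 TPM in unheated knockout and 477, 491 and 509 TPM in unheated wild type. All heated libraries lay below all unheated ones, with heated wild type below heated knockout. Rpl39l fell by 0.76 in log2 in the knockout (SE 0.07, adjusted p = 1.99e-09 in limma) and by 1.52 in wild type (SE 0.07, adjusted p = 1.76e-14).

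Within both pairs the balance of transcripts moved from the copy toward the X-linked gene after heat, less in the knockout than in wild type. Rpl10l made up 20.7 ± 2.84% of the summed TPM of Rpl10l and Rpl10 in heated knockout (SD, n = 5), 8.99 ± 1.88% in heated wild type (n = 4), 66.2 ± 1.43% in unheated knockout (n = 6) and 71.4 ± 1.84% in unheated wild type (n = 6). Rpl39l made up 63.4 ± 4.25% of its pair in heated knockout, 34.5 ± 5.68% in heated wild type, 91.3 ± 0.556% in unheated knockout and 93.0 ± 0.800% in unheated wild type. Thus Rpl39l remained the more abundant of its pair in each heated knockout library, at 58.6% or more, and was the less abundant in each heated wild-type library, at 41.3% or less. The pair sums behaved differently: Rpl10l and Rpl10 summed to 466 ± 31.0 TPM in heated knockout, 729 ± 62.5 TPM in heated wild type, 360 ± 16.5 TPM in unheated knockout and 327 ± 17.6 TPM in unheated wild type. Rpl39l and Rpl39 summed to 448 ± 12.9 TPM in heated knockout, 501 ± 51.3 TPM in heated wild type, 527 ± 9.63 TPM in unheated knockout and 529 ± 11.6 TPM in unheated wild type.

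The log2 ratio of copy over parent was compared by 2-sided exact permutation of libraries, with adjustment over the 8 tests. For Rpl10l over Rpl10, the heated minus unheated difference was -2.90 in the knockout (exact permutation p = 0.00216, adjusted p = 0.00577) and -4.66 in wild type (p = 0.00476, adjusted p = 0.00635). For Rpl39l over Rpl39 it was -2.57 in the knockout (exact permutation p = 0.00216, adjusted p = 0.00577) and -4.62 in wild type (p = 0.00476, adjusted p = 0.00635). Knockout minus wild type after heat, the difference was 1.41 for the Rpl10 pair and 1.72 for the Rpl39 pair (exact permutation p = 0.00794 and adjusted p = 0.00794 for each). These 6 p-values are the smallest that groups of these sizes allow, and the groups did not overlap in any of the 6. Without heat, knockout minus wild type, the difference was -0.35 for the Rpl10 pair, with no overlap (exact permutation p = 0.00216, adjusted p = 0.00577), and -0.33 for the Rpl39 pair, with overlap (p = 0.00433, adjusted p = 0.00635).

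Markers of meiotic and early postmeiotic germ cells mostly fell beside the copies, and other germ cell markers moved in both directions. Of the 17 markers of pachytene and diplotene spermatocytes, 15 were lower after heat in each genotype, with a median log2 fold change of -1.26 in the knockout and -2.66 in wild type. Of the 16 round spermatid markers, 14 were lower in the knockout (median -1.79) and 15 in wild type (median -4.45). The spermatocyte markers summed to 5384 to 6497 TPM in heated knockout and 2237 to 3236 TPM in heated wild type, against 10221 to 10702 TPM in unheated knockout and 10533 to 11275 TPM in unheated wild type. The round spermatid markers summed to 1568 to 2096 TPM in heated knockout and 561 to 848 TPM in heated wild type, against 3313 to 3588 TPM in unheated knockout and 3494 to 3662 TPM in unheated wild type. Of 12 spermatogonial markers tested, 9 were higher and 2 lower in the knockout (median 0.38), and 8 were higher and 2 lower in wild type (median 0.98), although their summed level was 366 ± 20.6 TPM in heated knockout and 298 ± 23.2 TPM in heated wild type, against 797 ± 39.2 TPM in unheated knockout and 813 ± 43.6 TPM in unheated wild type. Of 15 markers of elongating spermatids, 13 were higher and 0 lower in the knockout (median 0.71), and 6 were higher and 7 lower in wild type (median 0.06). The elongating spermatid markers summed to 8.92 ± 0.718% of all TPM in heated knockout and 4.64 ± 0.604% in heated wild type, against 5.65 ± 0.279% in unheated knockout and 5.74 ± 0.385% in unheated wild type (SD). None of these markers was at 0 throughout a group, and the part of germ cells in the falls of the copies was not tested.

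The other members named as copies did not move together: of the 8 in all, 3 rose, 4 fell and 1 was not called after heat in each genotype. Over all tested genes 41.3% rose and 41.5% fell in the knockout, and 47.0% rose and 44.6% fell in wild type. Rps4l, the autosomal relative of Rps4x, was at 36.7 to 48.6 TPM in heated knockout and 33.9 to 42.9 TPM in heated wild type, against 68.6 to 104 TPM in unheated knockout and 61.9 to 101 TPM in unheated wild type. It fell by 0.92 in log2 in the knockout (SE 0.11, adjusted p = 2.02e-07 in limma) and by 1.15 in wild type (SE 0.12, adjusted p = 9.87e-09), and heated and unheated libraries did not overlap. Its longest stretch shared with Rps4x was 38 bases. Rpl36al, the autosomal relative of Rpl36a, lies outside the symbol rule and stayed near its unheated level, with a log2 fold change of -0.10 ± 0.04 in the knockout (adjusted p = 0.0386 in limma) and -0.01 ± 0.05 in wild type (adjusted p = 0.862).

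An autosomal pair also split. Rpl22, which encodes a large subunit protein, had 246, 269, 233, 249 and 236 TPM in heated knockout and 347, 376, 371 and 340 TPM in heated wild type, against 134 to 158 TPM in unheated knockout and 132 to 147 TPM in unheated wild type. Its paralog Rpl22l1 had 156, 122, 124, 116 and 138 TPM in heated knockout and 113, 116, 121 and 103 TPM in heated wild type, against 180 to 230 TPM in unheated knockout and 192 to 231 TPM in unheated wild type. Neither gene had heated and unheated libraries that overlapped. Rpl22 rose by 0.77 ± 0.05 in log2 in the knockout (adjusted p = 5.66e-12 in limma) and 1.35 ± 0.05 in wild type (adjusted p = 3.71e-16), and Rpl22l1 fell by 0.63 in the knockout (SE 0.07, adjusted p = 9.38e-08) and by 0.84 in wild type (SE 0.08, adjusted p = 1.48e-09).

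Rpl7l1, a relative of Rpl7, rose with its parent. It had 36.7 to 42.2 TPM in heated knockout and 61.5 to 77.9 TPM in heated wild type, against 23.7 to 33.3 TPM in unheated knockout and 21.1 to 24.1 TPM in unheated wild type. Its log2 fold change was 0.57 ± 0.08 in the knockout and 1.63 ± 0.08 in wild type, where Rpl7 had 0.35 ± 0.05 in the knockout and 0.67 ± 0.05 in wild type. Rps27l, a relative of Rps27 and in mice a p53 target, rose by 0.45 ± 0.05 in the knockout and 1.03 ± 0.06 in wild type, while Rps27 rose by 0.22 ± 0.06 in the knockout, a sign that turned with quantile normalization, and 0.40 ± 0.06 in wild type. Rpl6l rose by 0.53 ± 0.06 in the knockout and 0.94 ± 0.06 in wild type, and Rpl6 by 0.47 ± 0.05 in the knockout and 0.94 ± 0.06 in wild type, with the shared sequence noted above. Rpl32l was at 1.19 to 3.44 TPM over all libraries and was not called in any comparison.

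Among the remaining 71 members, 49 rose and 9 fell in the heated knockout, and 54 rose and 10 fell in heated wild type. The shares over all tested genes were 41.3% higher and 41.5% lower in the knockout, and 47.0% higher and 44.6% lower in wild type. Rpl14 and Rps3 followed the X-linked genes closely in rank and were picked after their values were seen. Rpl14, which encodes a large subunit protein, was at 175 to 218 TPM in heated knockout and 274 to 312 TPM in heated wild type, against 91.1 to 117 TPM in unheated knockout and 83.3 to 97.9 TPM in unheated wild type, and rose by 0.88 ± 0.07 in the knockout and 1.64 ± 0.07 in wild type. Rps3, a small subunit protein at the mRNA entry site, was at 251 to 311 TPM in heated knockout and 412 to 542 TPM in heated wild type, against 153 to 183 TPM in unheated knockout and 149 to 172 TPM in unheated wild type. It rose by 0.76 ± 0.07 in the knockout and 1.53 ± 0.07 in wild type.

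Rpl36 and Rps7 were among the members that fell. Rpl36, which encodes a large subunit protein, was at 303, 331, 367, 320 and 268 TPM in heated knockout and 287, 223, 212 and 194 TPM in heated wild type, with lowest, median and highest values of 356, 419 and 546 TPM in unheated knockout and 280, 437 and 531 TPM in unheated wild type. Heated and unheated libraries overlapped in both genotypes. Rpl36 fell by 0.43 in log2 in the knockout (SE 0.14, adjusted p = 0.00709 in limma) and by 0.87 in wild type (SE 0.15, adjusted p = 9.89e-06). Rps7, a small subunit protein that also binds Mdm2, was at 487 to 543 TPM in heated knockout and 388 to 410 TPM in heated wild type, against 592 to 657 TPM in unheated knockout and 615 to 677 TPM in unheated wild type, with no overlap. It fell by 0.29 in the knockout (SE 0.04, adjusted p = 5.68e-07) and by 0.69 in wild type (SE 0.04, adjusted p = 3.64e-13).

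The P stalk, which recruits translation factors to the ribosome, did not move as a unit. Rplp1 was at 538 to 694 TPM in heated knockout and 620 to 810 TPM in heated wild type, against 408 to 588 TPM in unheated knockout and 310 to 485 TPM in unheated wild type. It rose by 0.34 ± 0.12 in log2 in the knockout (adjusted p = 0.0116 in limma) and by 0.72 ± 0.12 in wild type (adjusted p = 1.36e-05). Rplp2 rose by 0.29 ± 0.09 in the knockout (adjusted p = 0.00363) and 0.50 ± 0.09 in wild type (adjusted p = 2.56e-05). Rplp0, the scaffold of the stalk, had 945 ± 60.8 TPM in heated knockout and 869 ± 48.6 TPM in heated wild type, against 1008 ± 53.5 TPM in unheated knockout and 992 ± 61.5 TPM in unheated wild type, and had a log2 fold change of -0.09 ± 0.05 in the knockout (adjusted p = 0.109) and -0.19 ± 0.06 in wild type (adjusted p = 0.00392).

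Most ribosomal protein genes called in both genotypes changed less with heat in the knockout. On TPM as deposited, the median difference of the members was close to that of all tested genes. Of the members, 56 rose in both genotypes and 12 fell in both. For 66 of these 68 the absolute log2 fold change was larger in wild type, and the same count over all tested genes was not made. Rpl34, which encodes a large subunit protein, was called in opposite directions, at -0.10 ± 0.04 in the knockout (adjusted p = 0.0177 in limma) and 0.11 ± 0.04 in wild type (adjusted p = 0.0102), and the wild-type value turned negative with median-of-ratios scaling. The test of the difference, the heat effect in the knockout minus that in wild type, called 6 members higher and 49 lower, with 28 not called, against 33.2% of all tested genes higher and 47.6% lower (80.7% called). On TPM as deposited the median difference was -0.22 for the members and -0.23 for all tested genes, so by this median the members did not stand apart. By direction they differed, with 10.9% of called members higher, against 41.1% of all called genes. With quantile normalization the difference shifted in median by -0.16 for the members and 0.04 for all tested genes. With median-of-ratios scaling the shifts were 0.15 and 0.14.

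That difference was negative for all 4 X-linked members, at -1.30 ± 0.14 for Rps4x (adjusted p = 3.71e-08 in limma), -1.29 ± 0.14 for Rpl39 (7.41e-08), -1.22 ± 0.11 for Rpl10 (5.88e-09) and -1.08 ± 0.11 for Rpl36a (2.67e-08). It was positive for Rpl39l (0.76 ± 0.10, adjusted p = 1.05e-06) and Rpl10l (0.54 ± 0.10, adjusted p = 4.30e-05), and did not pass the test for Rps4l (0.23 ± 0.17, adjusted p = 0.207). Rpl36 stood at 0.44 ± 0.20, just past the threshold (adjusted p = 0.0499), and lost the call under several alternatives. Over the 871 X-linked genes tested, the median was -0.66, with 221 higher and 541 lower. With median-of-ratios scaling 15 members were higher and 32 lower, and with quantile normalization 4 were higher and 59 lower. Of the called members 31.9% and 6.35% were then higher, against 46.3% and 42.5% of all called genes.

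The heated groups compared directly gave 7 members higher and 54 lower in the knockout, with 22 not called, where 34.4% of all tested genes were higher and 49.0% lower (83.5% called). The median log2 fold change was -0.21 for the members and -0.20 for all tested genes, and the groups did not overlap for 55 members, against 72.3% of all tested genes. Rpl39 (-0.99 ± 0.11, adjusted p = 3.63e-08 in limma), Rps4x (-0.94 ± 0.10, 4.24e-08) and Rpl10 (-0.84 ± 0.08, 9.10e-09) were the lowest in the knockout relative to wild type. Rpl39l (0.73 ± 0.08, 2.81e-08), Rpl10l (0.57 ± 0.07, 5.21e-07) and Rpl36 (0.48 ± 0.15, 0.00677) were the highest. The other 4 called higher were Rps7, Rps20, Rpl37a and Rpl22l1. With median-of-ratios scaling 17 members were higher and 36 lower, and with quantile normalization 4 were higher and 63 lower. Of the called members 32.1% and 5.97% were then higher, against 45.8% and 41.1% of all called genes. Rps20 and Rpl37a changed sign with quantile normalization. Of the Sertoli markers 17 of 18 were lower in the heated knockout, and all 16 round spermatid markers were higher, and the part of those cells in these differences was not tested.

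**Figure D4:**
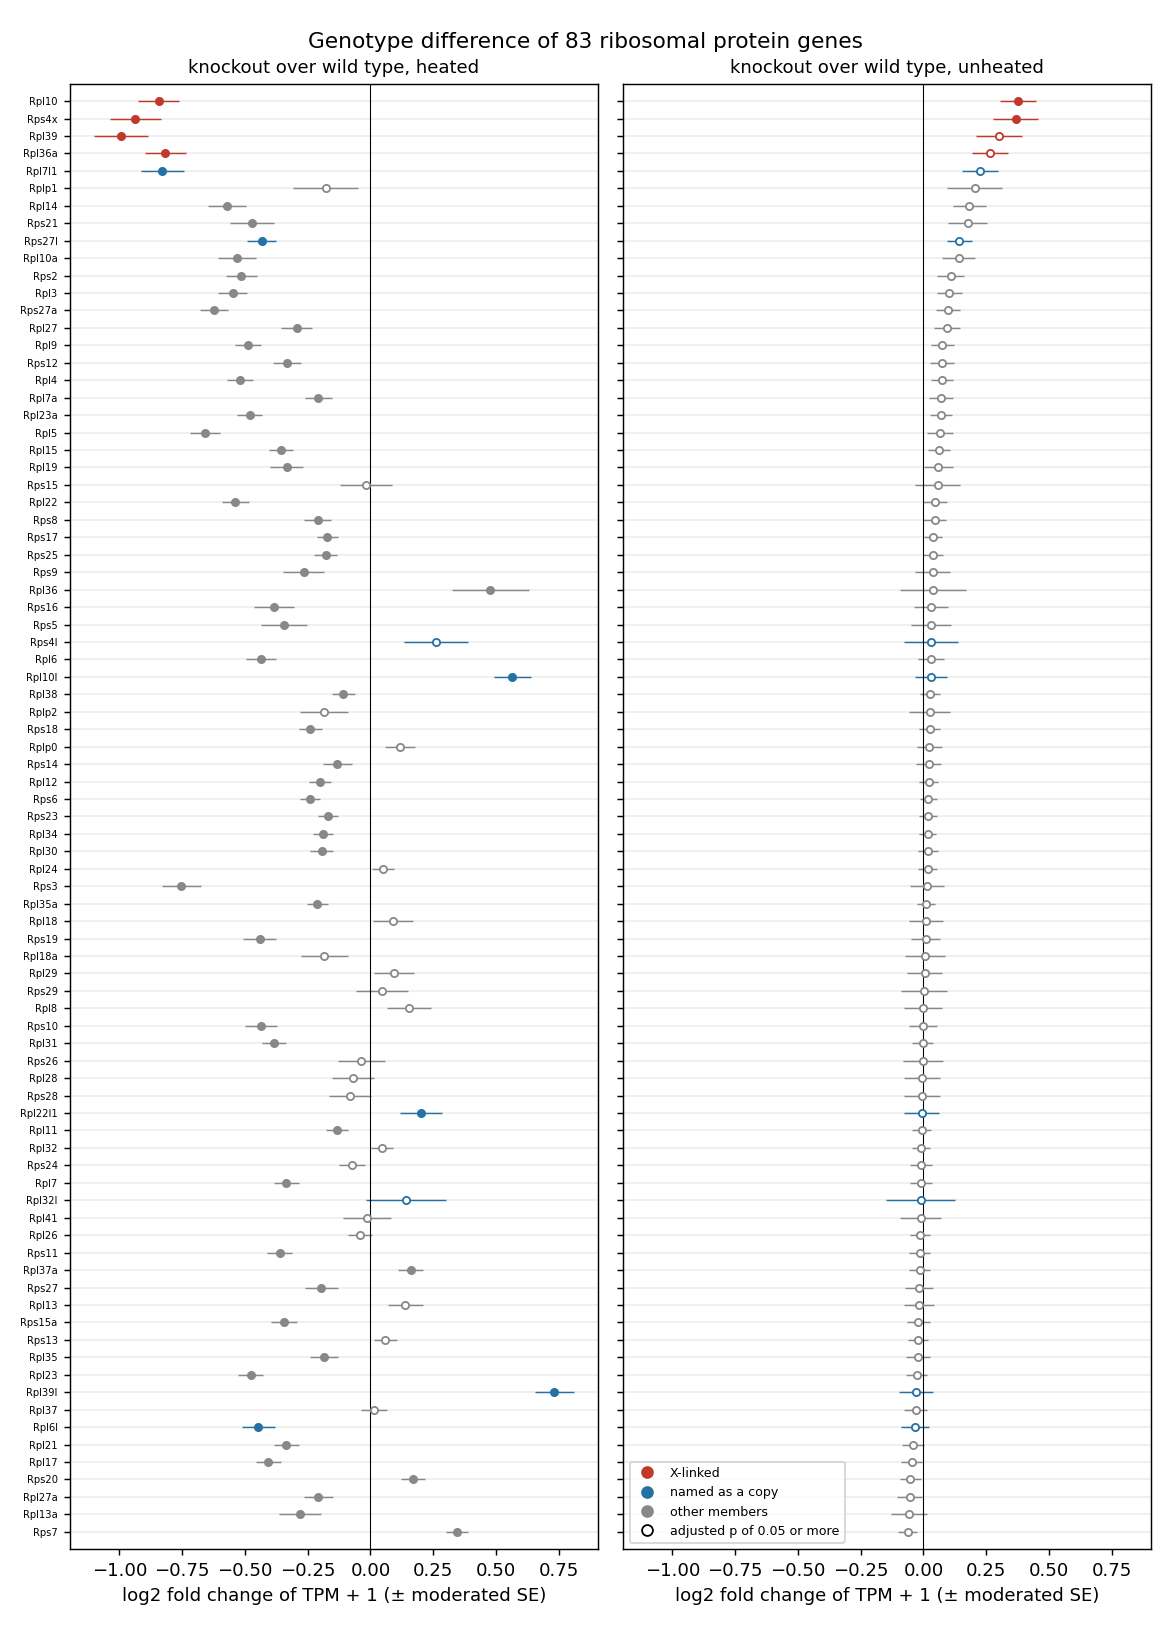
Log2 fold change of TPM + 1, knockout over wild type, with its moderated standard error, for the 83 members after heat (left) and without heat (right), ordered by the unheated value on a common axis. Colours are as for the heat effects, and open symbols did not pass the test. The X-linked genes were lower in the knockout after heat and slightly higher without heat.

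Without heat the genotypes differed little. Of the 83 members 2, Rpl10 and Rps4x, were called higher in the knockout by limma and 0 lower, where 1.25% of all tested genes were higher and 0.0843% lower (1.33% called). At an unadjusted p under 0.05, 10 members were higher and 0 lower, against 14.3% of all tested genes higher and 1.69% lower. Rpl10 was at 121 ± 4.72 TPM in unheated knockout and 93.7 ± 9.66 TPM in unheated wild type (SD, n = 6 each), with no overlap, a log2 difference of 0.38 ± 0.07 (adjusted p = 0.0171 in limma). Leaving out replicate 6 of unheated knockout, or replicate 3 or 5 of unheated wild type, ended that call, with adjusted p of 0.0583, 0.0553 and 0.0512. Rps4x was at 57.5 ± 6.19 TPM in unheated knockout and 44.4 ± 4.54 TPM in unheated wild type, overlapping at the edge, a difference of 0.37 ± 0.09 (adjusted p = 0.0456), and this call was kept without replicate 6 of unheated wild type and lost without any other single unheated library, with adjusted p of up to 0.141.

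The other X-linked members did not pass the test, at 0.30 ± 0.09 for Rpl39 (adjusted p = 0.0938 in limma) and 0.26 ± 0.07 for Rpl36a (adjusted p = 0.0621). The lowest 3 values, for Rps7 (-0.06 ± 0.04), Rpl13a (-0.06 ± 0.07) and Rpl27a (-0.05 ± 0.05), did not pass it either. Rpl10l (0.03 ± 0.06) and Rpl39l (-0.03 ± 0.07) were not called. Groups did not overlap for 2 members, Rpl10 and Rpl3, against 4.97% of all tested genes. The Sertoli markers summed to 2277 ± 263 TPM in unheated knockout and 1773 ± 84.3 TPM in unheated wild type, 5 of 18 were called higher and their median log2 difference was 0.33, and their part in the Rpl10 and Rps4x differences was not tested.

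Genes that serve the ribosome moved in both directions after heat. Beside the counts here and for RNA polymerase I and TOP genes, 41.3% of all tested genes rose and 41.5% fell in the knockout. In wild type 47.0% of all tested genes rose and 44.6% fell. Of 6 tested ribosomal proteins outside the symbol rule, 5 rose and 1 fell in the knockout and 4 rose and none fell in wild type. Among them Rps3a1, a small subunit protein, rose by 0.81 ± 0.06 in the knockout and 1.54 ± 0.06 in wild type, and Rack1, a signalling scaffold on the small subunit, rose by 0.65 ± 0.06 in the knockout and 1.48 ± 0.07 in wild type. Of 30 ribosome biogenesis genes, 15 rose and 8 fell in the knockout and 24 rose and 4 fell in wild type. Ncl, which encodes the nucleolar protein nucleolin, had 97.9 ± 7.03 TPM in heated knockout and 162 ± 7.58 TPM in heated wild type, against 48.1 ± 5.18 TPM in unheated knockout and 42.9 ± 2.04 TPM in unheated wild type. Mrto4, a nucleolar relative of Rplp0 that acts in large subunit assembly, fell by 1.35 in log2 in the knockout (SE 0.05) and by 1.47 in wild type (SE 0.06).

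Of 14 RNA polymerase I genes, 7 rose and 7 fell in the knockout and 9 rose and 5 fell in wild type. Ubtf, which encodes the factor that opens ribosomal DNA to the polymerase, rose by 1.42 ± 0.10 in the knockout and 2.62 ± 0.10 in wild type, and Rrn3, an initiation factor, by 0.54 ± 0.07 in the knockout and 1.40 ± 0.07 in wild type. Of 16 other genes with TOP mRNAs, 6 rose and 8 fell in the knockout and 7 rose and 6 fell in wild type. Hnrnpa1, an RNA-binding protein, rose by 0.72 ± 0.07 in the knockout and 1.82 ± 0.07 in wild type, and Btf3, a subunit of the nascent polypeptide-associated complex, had -0.62 ± 0.04 in the knockout and -1.06 ± 0.05 in wild type. Their medians, -0.06 in the knockout and 0.03 in wild type, lay below those of the ribosomal protein genes.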

How the data were processed

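RNA sequencing of 21 whole testes was aligned with STAR to mm10, per the submitters' processing notes. The authors deposited TPM, with the same total in each library. The version of STAR, the gene annotation, the quantification tool and its treatment of reads shared by near-identical genes are not stated there or in the labels. Depth is unknown, and precision was judged from replicates. Values were transformed to log2(TPM + 1), the 18977 genes averaging 1 TPM or more were kept, and all libraries entered 1 limma 3.58.1 fit (R 4.3.3) of the 4 group means with a mean-variance trend and Benjamini-Hochberg adjustment over all genes. The fit was tested on simulated data. Ratios of copy over parent used log2 with 1 TPM added and exact permutation. Folds given in TPM divide group means.

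The genes named were the 4 contrasted by pair, other members ending in l, l1 or x with their parents, the P stalk, Mageb4, the 4 largest and 4 smallest log2 fold changes in each heat comparison and 3 in each other comparison, and up to 2 genes per related list. The members and lists were chosen with earlier results of these data known. Rpl14, Rps3, Rpl34, the other 4 members called higher in the heated knockout, Rpl3, Rps6, Rps24, Rpl41, G6pd2 and Gk were named after values were seen. Coordinates and coding sequences came from GENCODE M21, which may not be the authors' annotation, and start windows from RefSeq. No column was left unmapped. Alternatives were another pseudocount and filters, 2 scalings, removal of mitochondrially encoded genes, each library left out and the replicate number as a block.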

Additional observations from a re-analysis of the deposited data

Results flagged for a closer look

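For 4 of 88 gene and group combinations tested, 1 library lay far from the rest of its group, and chance flags about 1 in 20. Rplp0 was at 942.15 TPM in replicate 1 of heated wild type, above the other 3 libraries, and at 872.93 TPM in replicate 4 of unheated wild type, below the other 5. Rpl7l1 was at 33.3 TPM in replicate 6 of unheated knockout, above the other 5 libraries. Rpl32l was at 3.44 TPM in replicate 2 of unheated wild type, above the other 5.

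The heat effect in the knockout minus that in wild type was flagged for 6 members, those with its 3 largest and 3 smallest values. These 6 passed limma's test, as did further members counted above, Rpl36a among them. The difference was -1.30 in log2 for Rps4x, -1.29 for Rpl39 and -1.22 for Rpl10, each of which rose less in the knockout. It was 0.76 for Rpl39l and 0.54 for Rpl10l, each of which fell less in the knockout. It was 0.44 for Rpl36, with an adjusted p of 0.0499.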

How the results depend on the processing

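The ratios kept their direction under every alternative run. So did those of the largest and smallest fold changes of members that passed the test. Small changes of other members turned with the scaling, as given above. For fold changes that passed neither in the main fit nor in the alternative, a change of sign was not counted. Members called lower after heat in wild type numbered 7 with quantile normalization, against 14. Members called higher in the unheated knockout numbered 1, against 2, with no filter, with median-of-ratios scaling and with quantile normalization, and 0 to 2 with 1 library left out. Members called higher in the heated knockout against heated wild type numbered 17 with median-of-ratios scaling and 4 with quantile normalization, against 7, and 6 to 11 with 1 library left out, the 11 without replicate 1 of heated wild type. For the difference of the heat effects, median-of-ratios scaling gave 15 higher and 32 lower, against 6 and 49. The other counts stayed within 1.5 times, and the ratio tests kept their direction and call. The call of Rpl36 in that difference was lost with a pseudocount of 0.1 (adjusted p = 0.0506 in limma), with no filter, with quantile normalization (0.354) and with mitochondrially encoded genes removed (0.0791), with an adjusted p of up to 0.114 when 1 library was left out. The cause of these changes was not tested.

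Same-numbered libraries of different groups correlated at -0.228 to 0.314 in their deviations, so the numbers were not taken to pair samples. With the replicate number as a block, members called higher and lower were 55 and 13 for heat in the knockout, 60 and 14 for heat in wild type, 7 and 53 for knockout against wild type after heat, 2 and 0 without heat, and 5 and 47 for the test of whether heat effects differed, where Rpl36 lost its call (adjusted p = 0.0595 in limma). TPM without depth leave the counting error of low genes such as Rpl32l unknown.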

Other observations

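Other X-linked genes with a testis-expressed autosomal copy were measured beside the ribosomal protein pairs. Of 8 X-linked parents, 6 rose and 1 fell after heat in the knockout and 7 rose and 1 fell in wild type. Of their 8 copies, 1 rose and 7 fell in the knockout and 1 rose and 6 fell in wild type. Among all 871 X-linked genes tested, 566 rose and 192 fell in the knockout, and 574 rose and 250 fell in wild type. The shares over all tested genes were 41.3% higher and 41.5% lower in the knockout, and 47.0% higher and 44.6% lower in wild type. Cetn2, which encodes a centrin, rose by 1.49 ± 0.06 in log2 in the knockout and 2.34 ± 0.06 in wild type, and its copy Cetn1 fell by 0.93 in the knockout (SE 0.18) and fell by 3.68 in wild type (SE 0.19). G6pdx, the first enzyme of the pentose phosphate pathway, rose by 1.64 ± 0.09 in the knockout and 3.02 ± 0.10 in wild type. The ratio of heated to unheated mean TPM of its copy G6pd2 was 0.726 in the knockout and 0.378 in wild type. In a different pair, Gk2, a copy of the glycerol kinase gene Gk, fell by 2.21 in the knockout (SE 0.20) and fell by 4.58 in wild type (SE 0.22). Gk itself was low, at 1.01 to 2.12 TPM in heated knockout and 1.85 to 11.74 TPM in heated wild type. It was at 0.75 to 1.32 TPM in unheated knockout and 0.63 to 1.91 TPM in unheated wild type.

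Genes for proteins of the mitochondrial ribosome, which is built separately from the cytosolic one, were also counted. Of 78 tested, 37 rose and 26 fell after heat in the knockout, and 49 rose and 24 fell in wild type. Of all tested genes 41.3% rose and 41.5% fell in the knockout, and 47.0% rose and 44.6% fell in wild type. The median log2 fold changes were 0.12 in the knockout and 0.45 in wild type, where the 79 autosomal cytosolic members had 0.22 and 0.46. Mrps17 rose by 0.99 ± 0.08 in the knockout and 2.02 ± 0.08 in wild type, and Mrps6 by 0.90 ± 0.07 in the knockout and 1.88 ± 0.07 in wild type.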
